A study of Mus musculus with 8 samples.

Results

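The PGC-1 coactivators and the transcription factors they work with were examined in skeletal muscle of mice lacking GRSF1, an RNA-binding protein of mitochondria. The set held 10 genes, chosen by name: the coactivators *Ppargc1a*, *Ppargc1b* and *Pprc1*, the estrogen-related receptors *Esrra*, *Esrrb* and *Esrrg*, the respiratory factors *Nrf1* and *Gabpa*, and the peroxisome proliferator-activated receptors *Ppara* and *Ppard*. All probes whose accession is a RefSeq transcript of these genes were taken, which gave 20 of the 56605 probes on the array (10 of the 22911 genes that could be named). Of the 10 genes, 7 had more than 1 probe, and *Esrra*, *Esrrb* and *Ppard* had 1 each. The 3 Grsf1cKO and 3 WT mice were males aged 17 months, and their total RNA was measured with the dye Cy3 on 8 Agilent arrays, since Grsf1cKO 1 and WT 1 each had a repeat array. Grsf1cKO mice descend from the Grsf1tm1a allele, whose LacZ and Neo cassettes were removed with FLPo, and exons IV and V were then deleted by Myf5Cre. This Cre acts in cells of the early muscle lineage, and the labels give the controls only as wildtype. The labels name the muscle as vastus intermedius and the study's methods as rectus femoris, both of the quadriceps. All 8 skeletal muscle marker genes examined were well above background in all 6 mice. The labels name the 6 mice as separate samples, and no litter is given.

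PGC-1 proteins do not bind DNA themselves but are recruited by transcription factors to genes for respiration, fatty acid oxidation and mitochondrial upkeep. PGC-1α, encoded by *Ppargc1a*, is known in muscle for its induction by endurance exercise, and PGC-1β (*Ppargc1b*) and PRC (*Pprc1*) share parts of its structure. The estrogen-related receptors bind short DNA sites as partners of the coactivators, NRF-1 and GABP bind promoters of many respiratory genes, and the PPARs control fatty acid use together with retinoid X receptors. *Nrf1* here is nuclear respiratory factor 1 and not *Nfe2l1* or *Nfe2l2*, which share the abbreviation.

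Because some of these factors can act on one another's genes, the 250 bases before the RefSeq start sites (GRCm38.p6) were searched on both strands for the motifs of the factors. Windows were found for 9 of the 10 genes, 14 windows in all, and none was found for *Ppargc1b*. Among the members, the core GCATGCGC of the NRF-1 motif was present in 1 window each of *Esrra* and *Ppara*, and in 2.25% of all 32817 windows. These windows of *Esrra* and *Ppara* had 68.4% and 76.4% G and C, beside a median of 52.4% over all windows. The part of base composition in the matches was not tested. The core of the GABP motif, CCGGAAG, was present in a *Gabpa* window and in 6.90% of all windows. The ERR motif TCAAGGTCA and the cAMP response element TGACGTCA had no exact match in the members' windows, and were found in 0.387% and 1.55% of all windows. Only exact matches to these full strings were searched, so partial or variant sites are not covered. The windows of *Esrra*, *Gabpa* and *Ppara* are shown because they hold the matches, in capitals, and that of *Ppargc1a* because its mRNA is described most fully here. The match in *Esrra* begins 34 bases before the start, that in *Gabpa* lies on the reverse strand and begins 93 bases before it, and in *Ppara* matches on both strands overlap from 31 bases before it.
*Esrra* (chr19:6921809-6922058, minus strand): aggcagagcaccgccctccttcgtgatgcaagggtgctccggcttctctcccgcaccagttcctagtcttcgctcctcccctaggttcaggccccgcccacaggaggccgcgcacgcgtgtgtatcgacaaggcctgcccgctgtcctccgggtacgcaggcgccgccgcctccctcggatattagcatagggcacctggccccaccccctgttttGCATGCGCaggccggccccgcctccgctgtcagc
*Gabpa* (chr16:84834874-84835123, plus strand): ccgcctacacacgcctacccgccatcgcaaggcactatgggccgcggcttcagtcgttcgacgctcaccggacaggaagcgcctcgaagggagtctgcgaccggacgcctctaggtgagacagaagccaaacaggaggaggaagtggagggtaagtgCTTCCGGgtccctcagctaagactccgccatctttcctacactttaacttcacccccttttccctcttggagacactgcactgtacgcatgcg
*Ppara* (chr15:85735526-85735775, plus strand): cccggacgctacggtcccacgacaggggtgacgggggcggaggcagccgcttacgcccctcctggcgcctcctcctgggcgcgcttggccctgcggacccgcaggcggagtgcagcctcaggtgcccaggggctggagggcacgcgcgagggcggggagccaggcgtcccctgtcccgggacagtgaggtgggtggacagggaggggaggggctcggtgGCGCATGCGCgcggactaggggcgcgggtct
*Ppargc1a* (chr5:51567726-51567975, minus strand): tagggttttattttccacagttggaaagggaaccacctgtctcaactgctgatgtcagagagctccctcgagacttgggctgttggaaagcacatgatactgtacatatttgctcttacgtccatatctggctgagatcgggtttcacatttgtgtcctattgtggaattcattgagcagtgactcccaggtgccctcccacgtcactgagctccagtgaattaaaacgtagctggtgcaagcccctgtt

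In a comparison of genotypes on the log2 scale with limma, which was fitted to all 38888 probes that passed the detection filter, no member gene met the study's criteria (fold change over 1.5, *p* under 0.01 and false discovery rate under 0.2). Of the 20 member probes, 19 were well above background in all 6 mice and were tested. The remaining probe, for the *Nrf1* transcript NM_001164229, was not well above background on any of the 8 arrays. Over the whole array 0.00771% of the probes tested met the criteria, that is 3 probes, for *Grsf1* and for both strands of an unnamed region. The *z*-test described below also placed 0 member probes past the criteria, since no member probe reached 1.5-fold. Its unadjusted *p* was under 0.05 for 6 member probes, beside 10.9% of all probes, and under 0.01 for 3. Its adjusted *p* was under 0.2 for 4 member probes. In whole muscle, a different mix of cells and a different amount of mRNA per cell cannot be told apart. With limma an unadjusted *p* under 0.05 was found for 1 of the 19 member probes. Over all probes tested the share was 4.23% in both directions and 2.91% in the lower direction, in which this member probe lay. The smallest limma adjusted *p* of a member was 0.996. The 3 Grsf1cKO mice lay apart from the 3 WT mice on 6 of the 19 probes, all lower in Grsf1cKO, beside 9.22% of all probes in both directions and 6.06% in the lower direction. These 6 probes belonged to 5 genes, *Ppargc1a* with both of its probes, *Pprc1*, *Esrra*, *Gabpa* and *Ppara*. Probes of 1 gene, on the same or on different transcript variants, are not independent. Of the 19 probes, 13 had a log2 fold change below 0, as did 56.8% of all probes tested. The median was -0.10 for the member probes and -0.023 for all probes, with -0.011 for the 19516 probes in the members' range of brightness.

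The targeted gene followed the labels on all 8 arrays. Where the *Grsf1* probe lies relative to the deleted exons IV and V is not known. *Grsf1* had log2 signals of 12.16, 12.03 and 12.09 in the Grsf1cKO mice and of 14.31, 14.25 and 14.29 in the WT mice, a log2 fold change of -2.19 ± 0.082 (SE; limma adjusted *p* = 0.00288). Leaving out Grsf1cKO 2, WT 1 or WT 3 left the difference at -2.16, -2.18 and -2.18 with adjusted *p* of 0.0543, 0.0552 and 0.0605. With the replicate block it was -2.19 (limma adjusted *p* = 0.201), and on slide 2 only -2.22 (limma adjusted *p* = 0.0534). On 7 arrays 66.3% to 73.1% of the spots were well above background, and on the repeat array of Grsf1cKO 1 88.9% were. Slide 1 held only WT arrays, the first of WT 1 and that of WT 2, and slide 2 held the remaining 6 arrays.

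**Figure D1:**
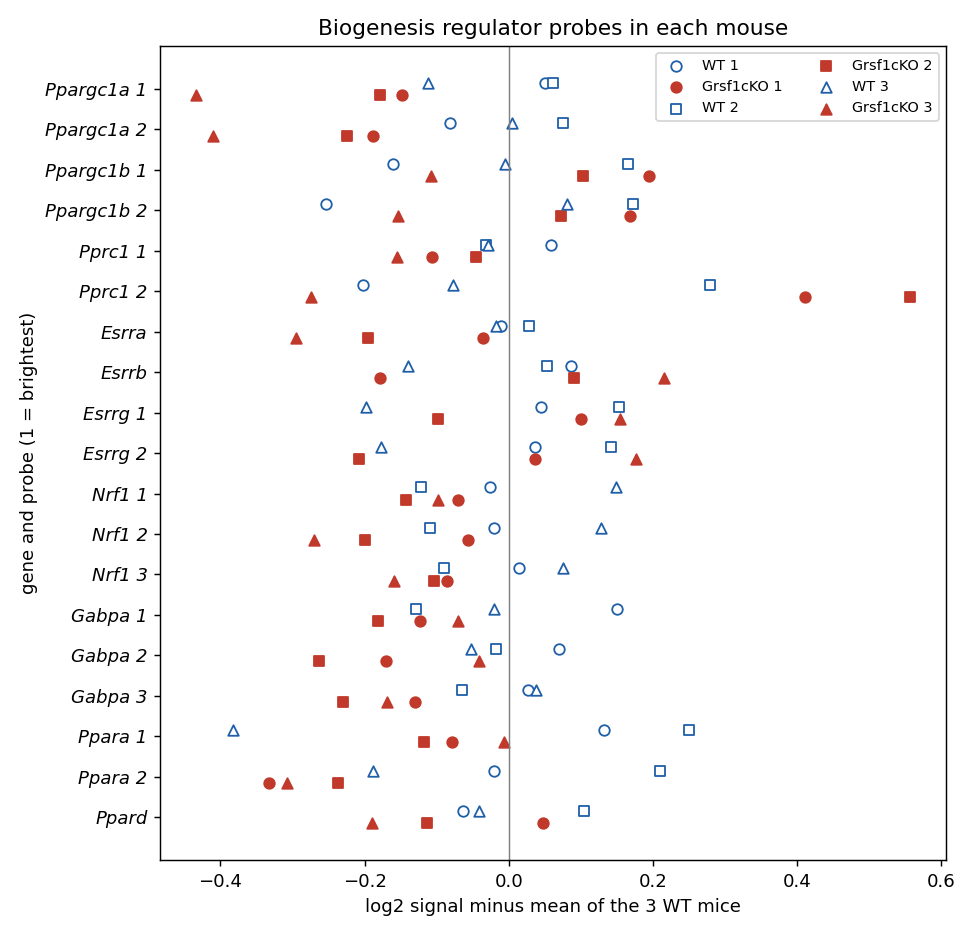
Quantile-normalized log2 signal of the 19 tested member probes in each mouse, minus the mean of the WT mice for that probe; filled and open points are the Grsf1cKO and WT mice, shapes give the mouse number, and 1 marks the brightest probe of a gene. Both *Ppargc1a* probes have all Grsf1cKO mice below all WT mice, while the genotypes overlap on the *Ppargc1b*, *Esrrb*, *Esrrg*, *Nrf1* and *Ppard* probes.

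Among the coactivators, *Ppargc1a* mRNA was the one with both probes lower in every Grsf1cKO mouse than in any WT mouse. On its brighter probe Grsf1cKO 1, 2 and 3 had log2 signals of 12.64, 12.61 and 12.36, whereas WT 1, 2 and 3 had 12.84, 12.85 and 12.68. The nearest mice of the genotypes, Grsf1cKO 1 and WT 3, were only 0.036 apart, less than the 0.083 between both arrays of WT 1. The means were 12.54 ± 0.16 and 12.79 ± 0.098 (SD, n = 3 mice each), a log2 fold change of -0.25 with a 95% interval from -0.53 to 0.025, or 0.839-fold (0.691 to 1.02). This did not pass the test (limma adjusted *p* = 0.996 over all probes, unadjusted *p* = 0.0674). The second *Ppargc1a* probe read 10.71, 10.68 and 10.49 in Grsf1cKO and 10.82, 10.97 and 10.90 in WT. Its log2 fold change of -0.27 (interval -0.52 to -0.030, 0.827-fold) had the lowest unadjusted *p* of the members, 0.0333, and an adjusted *p* of 0.996. Exact permutation of the mice gave *p* = 0.10 on each probe, two-sided, the smallest possible with 3 against 3.

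Grsf1cKO 3 was the lowest mouse on both *Ppargc1a* probes. Without it the differences were -0.16 and -0.21, and the first of these is a 1.5-fold smaller value. A *z*-test of the kind the study's methods name was run on the deposited *z*-scores, which standardize the log2 signal within each array. Since the formula of the test is not given, it was written here as the difference over the standard error of 3 mice, with a normal *p*. This *z*-test returned an adjusted *p* of 0.00015 for the second probe and of 0.30 for the first. Neither probe reached 1.5-fold in limma, the limit that was applied here in place of the methods' *z*-ratio.

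*Ppargc1b* mRNA overlapped between genotypes on both probes. The brighter probe read 13.39, 13.30 and 13.09 in Grsf1cKO and 13.03, 13.36 and 13.19 in WT, a log2 fold change of 0.064 (-0.25 to 0.38). The probe for the predicted transcript XM_006525698 read 11.48, 11.38 and 11.16 against 11.06, 11.48 and 11.39, a difference of 0.029 (-0.34 to 0.39). On both probes Grsf1cKO 1 and WT 2 were the 2 highest mice and WT 1 the lowest. Leaving out Grsf1cKO 1 or WT 1 turned both differences below 0.

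*Pprc1* had a probe in good signal and one near the bottom of the tested range. The brighter one read 11.21, 11.27 and 11.16 in Grsf1cKO and 11.38, 11.28 and 11.29 in WT, a difference of -0.10 (-0.30 to 0.099, adjusted *p* = 0.996) in which the nearest mice were 0.014 apart. The dim one gave 0.23 (-0.38 to 0.84) with overlapping mice, and its repeat arrays differed from the first ones by 0.52 in Grsf1cKO 1 and by 0.63 in WT 1. Its difference was 0.092 with slide as a block and ran from 0.069 without Grsf1cKO 2 to 0.49 without Grsf1cKO 3, and leaving out any mouse but WT 3 moved it by over 1.5 times. The mean of both probes gave 0.065.

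A comparison within each mouse, chosen after the values had been seen, set the coactivators against each other as differences of log2 signal, in which a single scaling factor per array cancels. Only the change of such a difference between mice can be read, since signals of different probes are not on one scale. *Ppargc1a* minus *Ppargc1b* on the brighter probes was -0.75, -0.69 and -0.73 in Grsf1cKO and -0.19, -0.51 and -0.51 in WT. The groups did not overlap, and the shift was -0.32 (exact permutation *p* = 0.10, the smallest possible, two-sided). The dimmer probes gave -0.30 with the same *p*, and the brighter ones -0.31 with arrays scaled to the 75th percentile and -0.29 with normexp background correction. Without WT 1 the shift on the brighter probes was -0.21, 1.5 times smaller, and without the other mice it lay between -0.37 and -0.30. *Ppargc1a* minus *Pprc1* shifted by -0.15 (*p* = 0.20) and *Ppargc1b* minus *Pprc1* by 0.17 (*p* = 0.40, both exact permutation). In all 4 comparisons were made, and with 3 mice a group none of them could pass 0.05.

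**Figure D2:**
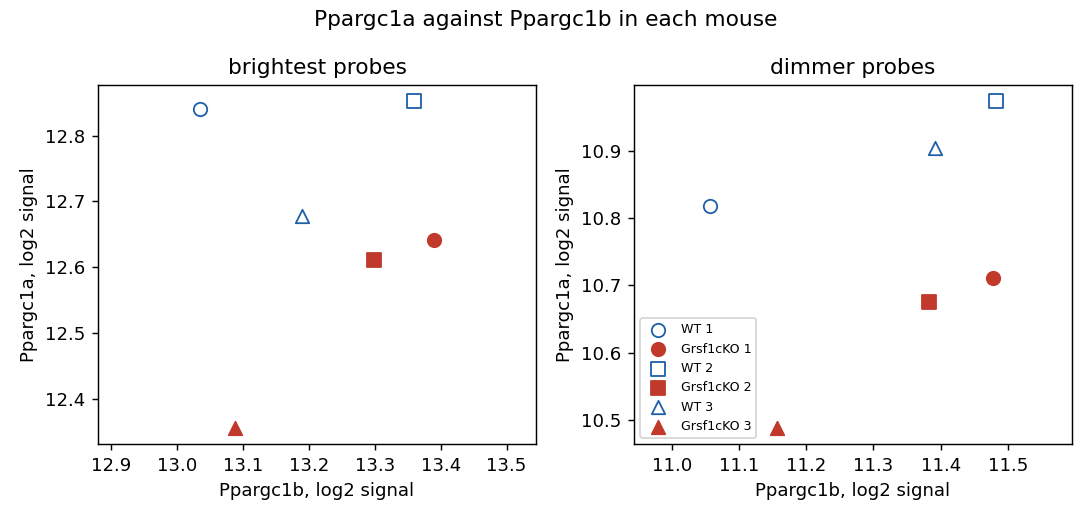
Log2 signal of *Ppargc1a* (vertical) against that of *Ppargc1b* (horizontal) in each mouse, for the brighter probes on the left and the dimmer ones on the right; filled points are Grsf1cKO and open points WT mice, and shapes give the mouse number, which does not pair mice. In both panels the 3 Grsf1cKO mice lie below the 3 WT mice on the vertical axis, while the genotypes overlap on the horizontal axis.

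The estrogen-related receptors overlapped between genotypes except for *Esrra*. *Esrra* encodes ERRα, the family member most closely tied to PGC-1α in muscle. Its probe read 15.54, 15.38 and 15.28 in Grsf1cKO and 15.57, 15.61 and 15.56 in WT, so that the WT mice lay within 0.046 of each other and the Grsf1cKO mice spread over 0.26. The log2 fold change was -0.18 (-0.41 to 0.062, 0.886-fold, adjusted *p* = 0.996), with the nearest mice 0.019 apart, and without Grsf1cKO 3 it was -0.12. *Esrrb*, a receptor best known from pluripotent cells, read 11.12, 11.39 and 11.52 against 11.39, 11.35 and 11.16, a difference of 0.044 (-0.28 to 0.37). *Esrrg*, which is known for its high level in oxidative muscle, read 11.19, 10.99 and 11.24 against 11.14, 11.24 and 10.89 on the brighter probe, a difference of 0.052 (-0.26 to 0.37). The other *Esrrg* probe gave 0.0014 (-0.34 to 0.34). The signs of *Esrrb* and *Esrrg* turned under several of the alternative settings.

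*Nrf1* and *Gabpa*, the factors of respiratory promoters, had all 6 tested probes below 0, and 5 of them overlapped between genotypes. The 3 tested *Nrf1* probes, for different transcript variants, gave -0.10 (-0.35 to 0.14), -0.17 (-0.43 to 0.084) and -0.12 (-0.33 to 0.094). On the brightest the mice read 10.53, 10.46 and 10.51 in Grsf1cKO and 10.58, 10.48 and 10.75 in WT, with WT 3 the highest mouse on each of the 3 probes. Without WT 3 the 3 differences were -0.030, -0.11 and -0.079, and the third was -0.064 without the repeat array of Grsf1cKO 1, which differed there by 0.31 from the first array, -0.049 with first arrays only, -0.18 with repeat arrays in place and -0.18 on slide 2 only. On the brightest probe the difference was -0.17 without WT 2, -0.19 on slide 2 only and -0.17 with slide as a block. *Gabpa*, the DNA-binding subunit of GABP, read 10.97, 10.91 and 11.02 against 11.24, 10.96 and 11.07 on its brightest probe, a difference of -0.12 (-0.38 to 0.13), which was -0.050 without WT 1 and -0.19 without WT 2. Its second probe gave -0.16 (-0.39 to 0.075), also with overlap. The dimmest *Gabpa* probe read 8.26, 8.17 and 8.23 against 8.42, 8.33 and 8.43, which did not overlap, with a difference of -0.18 (-0.38 to 0.025, adjusted *p* = 0.996).

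*Ppara*, the receptor that induces fatty acid oxidation genes, was measured by 2 probes that differed in size. On the brighter one WT 3 fell below every Grsf1cKO mouse, with 11.83, 11.79 and 11.90 in Grsf1cKO and 12.04, 12.16 and 11.52 in WT, and the difference was -0.068 (-0.50 to 0.36). It was -0.0017 without WT 1, 0.058 without WT 2, -0.26 without WT 3 and -0.043 without Grsf1cKO 2. With slide as a block it was -0.00047, and on slide 2 only 0.047. On the dimmer one the values were 10.43, 10.53 and 10.46 against 10.74, 10.98 and 10.58, which did not overlap. Its difference of -0.29 (-0.59 to 0.0043, 0.817-fold) was the largest of any member probe, had an adjusted *p* of 0.996 and was -0.19 without WT 2. A larger absolute log2 fold change was found for 15.3% of all probes tested. *Ppard*, the PPAR that is abundant in muscle, read 12.92, 12.76 and 12.68 against 12.81, 12.97 and 12.83, a difference of -0.085 (-0.34 to 0.17). It was -0.011 with slide as a block and -0.0069 on slide 2 only, -0.15 without Grsf1cKO 1, and -0.032 and -0.033 without Grsf1cKO 3 and WT 2.

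**Figure D3:**
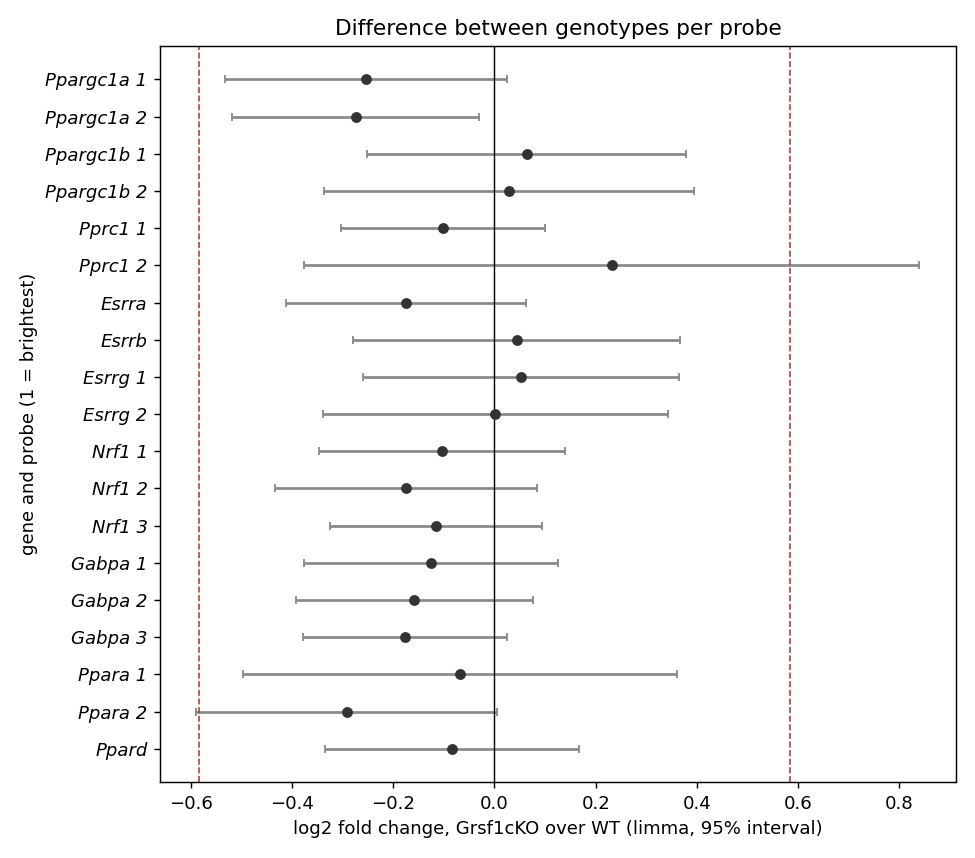
Log2 fold change of Grsf1cKO over WT for the 19 tested member probes with the 95% interval of limma, not adjusted for the number of probes; dashed lines mark 1.5-fold in either direction. The intervals of 17 probes lie within the dashed lines, and those of the dimmer *Pprc1* and *Ppara* probes cross them.

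The intervals bound how large a change these arrays leave possible. For 17 of the 19 probes, among them the brightest one of all 10 genes, the 95% interval lay within 1.5-fold in both directions. The median SE of a member probe was 0.11 on the log2 scale, against 0.14 over all probes tested. For the 18 member probes with a mean log2 signal over 8, the repeat array differed from the first by a median of 0.041 in WT 1 and of 0.066 in Grsf1cKO 1, and by at most 0.12 and 0.31. Over the 34882 probes above background on all arrays, the repeat array of Grsf1cKO 1 correlated with its own first array at r = 0.986, less than the first arrays of any pair of different mice (0.991 to 0.995), and that of WT 1 at 0.998.

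Mice differed within a genotype on several members at once. Grsf1cKO 1 was the highest Grsf1cKO mouse on 10 of the 19 probes and Grsf1cKO 3 the lowest on 10, where over all probes these mice were so on 31.2% and 34.6%. WT 2 was the highest WT mouse on 11 probes, against 31.4% of all probes. The order was not the same on every probe. Grsf1cKO 3 was the highest Grsf1cKO mouse on 6 probes (33.8% of all probes) and Grsf1cKO 1 the lowest on 2 (39.5%). WT 2 was the lowest WT mouse on 6 (34.5%). Grsf1cKO 3, the lowest mouse of all for *Ppargc1a* and *Esrra*, also stood apart in slow fiber genes, where it was the highest mouse in 9 of 10 genes and the second lowest for the slow myosin *Myh7*. The log2 of their summed signal was 18.38 in Grsf1cKO 3 and between 17.96 and 18.07 in the other 5 mice, and *Tnnt2*, cardiac troponin T, which immature muscle can share, was at 13.34 against 10.46 to 10.99. Of the other 3 cardiac genes examined, *Myh6* was lowest in Grsf1cKO 3 at 10.54, *Tnni3* highest at 7.55 and *Nppa* in the middle of the 6 mice at 7.43. Grsf1cKO 3 was also the highest mouse in 4 of the 7 macrophage genes by a wide gap. Its log2 signal was 13.31 for *Cd68* against 11.58 to 11.97 in the other mice, 11.34 for *Lyz2* against 9.53 to 10.29, 11.63 for *Adgre1* against 10.39 to 10.74, and 14.20 for *Csf1r* against 13.43 to 13.72. Its summed macrophage and fibroblast signals, 16.18 and 18.64, were the highest of the 6 mice. Without Grsf1cKO 3 the differences of the brighter *Ppargc1a* probe and of *Esrra* were smaller, as given above, and the part of these fiber and cell type genes in the values was not tested.

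Upstream of the coactivators, none of the 30 kinases, phosphatases, deacetylases and transcription factors examined passed an unadjusted *p* of 0.05, a level that 3.46% of the 17030 genes tested passed. Of these 30 genes, 11 were above and 19 below 0, with a median log2 fold change of -0.031 beside -0.020 over all genes. Without Grsf1cKO 3, which was left out of all lists after its values were seen, 16 were above and 14 below 0 and the median was 0.0053. *Sirt3*, the mitochondrial deacetylase, read 12.84, 12.83 and 12.82 in Grsf1cKO and 13.05, 13.00 and 12.96 in WT. This was a difference of -0.17 without overlap (unadjusted *p* = 0.0654, adjusted *p* = 0.996), and 3 of the 30 genes were lower without overlap, beside 5.93% of all genes. *Creb1*, which drives *Ppargc1a* transcription in response to cAMP, differed by -0.18 without overlap on its brightest probe, by -0.093 there without WT 1, and by -0.20 to -0.0054 with overlap on its other 3 probes. *Atf2*, a target of p38 kinase, differed by -0.15 on its brightest probe and by 0.091 and 0.0034 on its others, all with overlap, and the first of these values was -0.075 without WT 1 and -0.092 without Grsf1cKO 3. The AMP-activated kinase subunits *Prkaa1* and *Prkaa2* differed by -0.024 and -0.11, and the deacetylase *Sirt1* by -0.079.

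Of the 23 coregulators and partners tested, none passed the unadjusted level, 4 were above and 19 below 0, and the median was -0.073, or -0.030 without Grsf1cKO 3. Without overlap 4 of the 23 were lower, beside 5.93% of all genes. *Perm1*, a muscle protein induced by PGC-1 and ERRs, read 14.31, 14.35 and 14.16 against 14.34, 14.82 and 14.40, where the groups overlapped and WT 2 stood highest. Its difference was -0.25, or -0.093 without WT 2. *Gabpb2*, a partner subunit of GABPA, differed by -0.27 and *Crebbp*, a histone acetyltransferase that PGC-1 proteins recruit, by -0.16, both without overlap, although the nearest mice for *Gabpb2* were only 0.00046 apart, and their second probes by -0.070 and -0.11 with overlap.

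The target genes showed no change past the adjusted test of limma. With the *z*-test *Pdk4* passed, as given below. Among 20 ERR and PGC-1 targets, 5 were above and 15 below 0, and the median was -0.061 (-0.043 without Grsf1cKO 3). Of these genes 4 were lower without overlap, beside 5.93% of all genes. They include *Esrra*, itself a member, and *Sirt3*, which is also counted among the upstream genes. On its brightest probe *Idh3a* alone passed the unadjusted level, which 3.46% of all genes passed. *Idh3a*, a subunit of the isocitrate dehydrogenase of the citric acid cycle, read 16.61, 16.62 and 16.46 in Grsf1cKO and 16.82, 16.77 and 16.78 in WT, a difference of -0.23 (unadjusted *p* = 0.0384, adjusted *p* = 0.996). *Vegfa*, an angiogenic factor induced by PGC-1α, differed by -0.34 on its brightest probe with overlap, and its other 3 probes gave -0.29, -0.24 and -0.18. The first of these 3 did not overlap and had an unadjusted *p* of 0.0132 (adjusted *p* = 0.996). Of the 23 NRF-1 and GABPA targets, none passed the unadjusted level, 3 were above and 20 below 0, and the median was -0.053, or -0.031 without Grsf1cKO 3. In this list 1 gene was lower without overlap, beside 5.93% of all genes. *Tfam*, which packages mitochondrial DNA and starts its transcription, read 13.17, 13.12 and 13.16 against 13.30, 13.14 and 13.27, a difference of -0.090 with overlap, which was -0.056 without WT 1 and -0.14 without WT 2. *Ndufs1*, a core subunit of complex I, differed by -0.15 without overlap, and *Tomm20*, an import receptor of the outer membrane, and *Sdhd*, an anchor subunit of complex II, by -0.16 and -0.11 with overlap. Without WT 1 *Ndufs1* was at -0.096, and *Sdhd* was at -0.056 without Grsf1cKO 3. On slide 2 only and with slide as a block *Tomm20* was at -0.11 and -0.096. The other probes of *Tomm20* gave -0.078 and 0.023, and that of *Tfam* -0.10, also with overlap.

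PPAR targets were spread around 0, with 11 above and 13 below, a median of -0.023 and a range from -0.32 to 0.55 over 24 genes. None passed the unadjusted level, which 3.46% of all genes passed. Of the 24 genes, 2 were lower without overlap, beside 5.93% of all genes. *Angptl4*, an inhibitor of lipoprotein lipase, read 12.13, 12.60 and 12.41 in Grsf1cKO and 11.77, 12.32 and 11.64 in WT, a difference of 0.47 (-0.053 to 0.99) with overlap. *Pdk4*, the kinase that limits pyruvate oxidation, differed by 0.23 with overlap, and *Acot1*, a cytosolic acyl-CoA thioesterase, by -0.32 without, or by -0.18 if Grsf1cKO 1 was left out. The nearest mice of the genotypes for *Acot1* were only 0.0018 apart. No gene of these 5 lists had a limma adjusted *p* under 0.05. With the *z*-test, on the deposited *z*-scores, *Pdk4* (adjusted *p* = 0.000346) and *Ep300* (adjusted *p* = 0.0294) did. Their log2 fold changes in limma were 0.23 and -0.047. On the quantile-normalized log2 signals both genes overlapped between genotypes (exact permutation *p* = 0.20 and 0.60). The lists share some genes, and their medians are descriptions.

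**Figure D4:**
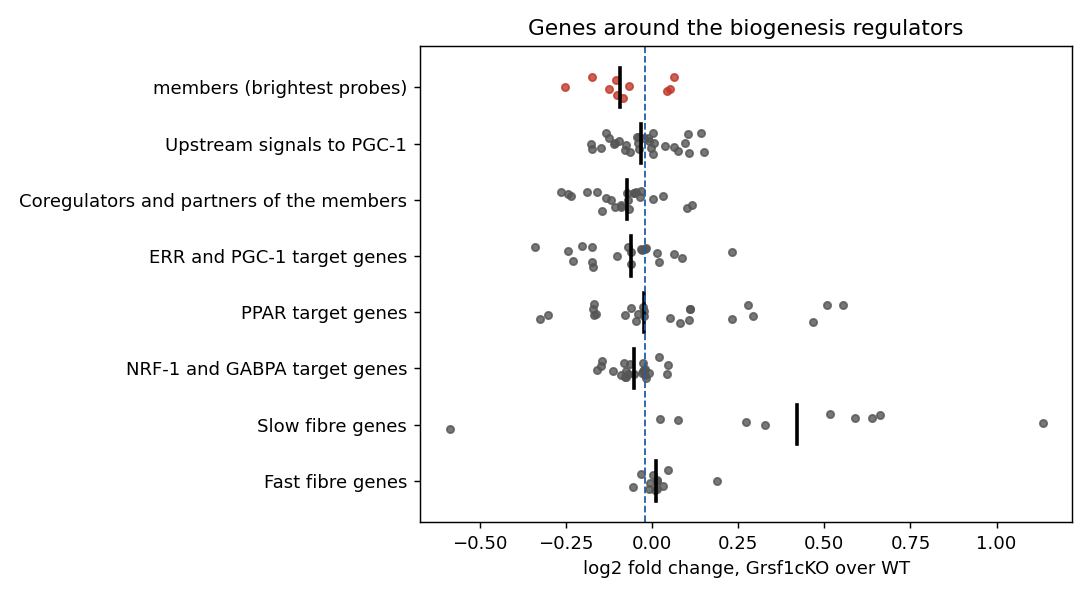
Log2 fold change of Grsf1cKO over WT for the brightest probe of each gene in the lists around the members, with 1 point per gene, the members on top, the median of each list as a bar and the median over all genes, -0.020, as a dashed line. The lists of upstream signals, coregulators and targets have medians between -0.073 and -0.023, and the slow fiber genes spread from -0.59 to 1.13.

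Fiber-type genes were examined because PGC-1α is known to favor slow, oxidative fibers. Of 10 slow fiber genes, 9 were above 0. *Myl2*, the slow regulatory light chain, passed the unadjusted level, as did 3.46% of all genes. It read 13.47, 13.48 and 14.37 in Grsf1cKO against 13.12, 13.23 and 13.05 in WT (difference 0.64, unadjusted *p* = 0.0463, adjusted *p* = 0.996). The median of the 10 genes was 0.42. This median rested on Grsf1cKO 3, since without this mouse it was 0.0015, with 5 genes above and 5 below 0, an alternative added after seeing the data. *Myh7*, the gene below 0, read 11.36, 9.47 and 9.40 in Grsf1cKO and 9.28, 11.38 and 11.34 in WT, a difference of -0.59 (-2.46 to 1.28) with overlap. *Tnni1*, slow troponin I, was at 14.34 in Grsf1cKO 3 and between 10.35 and 11.22 in the other mice. *Casq2*, the cardiac and slow fiber calsequestrin, and *Tnnc1*, slow troponin C, differed by 0.66 and 0.59 with overlap. Without Grsf1cKO 3 they differed by 0.36 and 0.056 and *Myl2* by 0.34, and without WT 1 *Casq2* and *Tnnc1* differed by 0.37 and 0.36. Without Grsf1cKO 2 *Tnnc1* differed by 0.93. The 12 fast fiber genes had a median of 0.011, among them *Myh2* at 0.19 and *Myh4* at -0.055, both without overlap on the brightest probe and with overlap on the other, and *Actn3* at 0.045 with overlap. Without Grsf1cKO 3 *Myh2* was at 0.13 and *Actn3* at 0.085, and *Actn3* was at 0.030 and 0.021 without Grsf1cKO 1 and 2. The signs of *Myh4* and *Actn3* were not the same under every scaling.

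Adipocyte genes, which matter here because brown fat has much *Ppargc1a*, did not separate the genotypes. The log2 of their summed signal was 17.12 to 17.57 in Grsf1cKO and 16.88 to 17.95 in WT, with 8 of 9 genes well above background in all mice. *Ucp1*, the uncoupling protein of brown fat, was well above background in 3 of the 6 mice, and was highest in WT 1 at 10.48. The ranges of the summed macrophage genes were 15.75 to 16.18 and 15.79 to 16.01, those of endothelium 15.80 to 15.90 and 15.84 to 15.88, and those of fibroblasts 18.47 to 18.64 and 18.34 to 18.54. Satellite cell genes ranged from 12.98 to 13.05 and from 12.70 to 13.00, with *Myf5* above background in none of the mice. *Vcam1*, an adhesion molecule of satellite cells that endothelium also makes, was 10.03, 10.30 and 10.49 against 9.85, 9.93 and 9.97, a difference of 0.36 without overlap (unadjusted *p* = 0.0368, adjusted *p* = 0.996). The part of other cell types in the member values was not tested.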

How the data were processed

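RNA of 6 mice was measured on 8 single-color Agilent arrays. The authors deposited the intensity of each spot on a linear scale, background-subtracted by Feature Extraction 12.0.3.1, and a table in which the deposited score of each spot is a *z*-score of its log2 signal within the array. The processed intensity was used. Control spots were left out, quantile normalization covered the 8 arrays, and the log2 signal of a mouse is the mean of its arrays. A probe counted as detected in a mouse when all its arrays were well above background, and probes detected in 3 or more mice were tested for genotype with limma 3.58.1 in R 4.3.3, with Benjamini-Hochberg adjustment over all of them. Accessions were named through a RefSeq table of GRCm38.p6 (32994 probes); the array files use mm9, no position was taken from them, and the promoter windows are those of GRCm38.p6.

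For a gene with several probes the brightest was counted. Besides the members and *Grsf1*, the genes named are the 3 with the lowest *p* in each list, *Perm1*, *Tfam* and *Pdk4*; *Prkaa1*, *Prkaa2*, *Sirt1*, *Tnni1*, *Myh6*, *Myh7*, *Nppa*, *Tnni3*, *Tnnt2*, *Ep300*, *Myf5*, *Ucp1*, *Vcam1* and the macrophage genes were named after their values were seen. The members and lists were chosen with earlier results of these data known. The number of mice, 3 of each genotype, limits the precision. The limma *p*-values rest on the spread between these mice after it was moderated toward the spread over all probes tested. The linear model was tested on simulated data. Alternatives were the scaling, background correction (normexp, offset 50), detection filter, repeat arrays, slide, intensity trend, replicate block, *z*-scores, *z*-test, mean over probes and each mouse left out.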

Additional observations from a re-analysis of the deposited data

How the results depend on the processing

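No setting brought a member probe to the study's criteria, and the smallest adjusted *p* of a member under any limma alternative was 0.795. Of 371 member values under other settings, 350 kept their direction and side of the threshold, and 20 changed sign. The number of member probes with an unadjusted *p* under 0.05, 1 here beside 4.23% of all probes, was 2 with normexp (3.69%), with detection in all mice (4.03%), with slide as a block (1.71%), with the replicate block (6.17%) or without the repeat array of Grsf1cKO 1 (3.54%), 4 with an intensity trend (3.49%), 6 with the *z*-test (10.9%), 0 with first arrays only (4.06%) or slide 2 only (4.17%), and 0 to 1 with a mouse left out (4.18% to 5.47%). The member probes whose genotypes do not overlap numbered 6 to 10 with a mouse left out, with 10 without Grsf1cKO 1 or without WT 2. Fewer mice make separation easier, and 17.3% to 20.6% of all probes did not overlap in these settings. Of those counted, 9 member probes were lower without Grsf1cKO 1 (11.5% of all probes) and 10 without WT 2 (13.4%). On slide 2 only, 9 member probes did not overlap, beside 20.4% of all probes, and all 9 were lower, beside 13.4%. Over all probes, 3 to 4 were called with a mouse left out, 1 with the replicate block and 283 with the *z*-test (73 higher, 210 lower). In the 7 lists, of 10 to 30 tested genes each, the genes with an unadjusted *p* under 0.05 numbered 2 here, beside 3.46% of all genes. They numbered 4 with normexp or first arrays only, and 0 without a detection filter (3.82% of all probes) or with repeat arrays in place (2.98%). With an intensity trend they numbered 11, with the replicate block 7 and with the *z*-test 15. On slide 2 only or with slide as a block 1 passed, and 1 to 6 with a mouse left out (6 without Grsf1cKO 1). The shares of all probes in the remaining settings are those given above for the members. Of the list genes 2, *Pdk4* and *Ep300*, had an adjusted *p* under 0.05 with the *z*-test. *Grsf1* stayed at -2.22 on slide 2 only (adjusted *p* = 0.0534), at -2.19 with the replicate block (0.201) and from -2.22 to -2.16 with a mouse left out. Same-numbered mice deviated together with r of 0.23, 0.10 and 0.093, which does not meet the limit of 0.1 for every pair, although 5 of the 6 mice correlated best with their own number (WT 3 by 0.0935 with Grsf1cKO 2 against 0.0931). With arrays scaled to the 75th percentile, 45.5% of all probes and 14 member probes were below 0, and 3.26% of all probes were lower without overlap, beside 6 member probes again.

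Signs turned for small values. *Esrrb* was -0.0088 with normexp and -0.0072 with the deposited *z*-scores, and -0.043 to 0.15 with a mouse left out. The brighter *Esrrg* probe was -0.014 with the *z*-scores and -0.047 to 0.13 with a mouse left out, and the other -0.0011 with the 75th percentile, -0.0018 with repeat arrays in place, -0.016 without the repeat array of Grsf1cKO 1, -0.064 with the *z*-scores and -0.087 to 0.11 with a mouse left out. The brighter *Ppara* probe was 0.047 on slide 2 only and -0.26 to 0.058 with a mouse left out. The *Ppargc1b* probes were -0.017 to 0.15 and -0.098 to 0.12 with a mouse left out, and *Pprc1* was 0.065 as a mean of its probes. *Sdhd* and *Myh4* were 0.014 and 0.021 with the *z*-scores, and *Actn3* was -0.077 with the 75th percentile. The cause was not tested.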
